A study of Homo sapiens with 9 samples.

Results

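Growth factor receptors signal through RAS, the RAF and MEK kinases and the kinase ERK, and ERK in turn raises the transcription of its own inhibitors, which is why such transcripts are widely read as a record of ERK activity. The 10 feedback genes examined here fall into 3 kinds. DUSP4, DUSP5 and DUSP6 encode dual-specificity phosphatases that remove phosphate from ERK, with DUSP6 acting in the cytoplasm and DUSP4 and DUSP5 in the nucleus. SPRY1, SPRY2 and SPRY4 encode the Sprouty proteins and SPRED1 and SPRED2 their relatives, which restrain the step from receptors to RAS and RAF. ETV4 and ETV5 encode ETS transcription factors of the PEA3 group, which are induced by ERK and also carry its signal to target genes.

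These 10 genes were taken by gene symbol from 25680 symbols in the deposited counts, each represented by its RefSeq row with the highest total over the 9 libraries. After the count filter, 8 of the 10 were among the 14199 genes tested, and SPRY4 and SPRED1 were not. RNA came from SKNO-1 (SKNO1 in the labels), a human acute myeloid leukaemia line that carries the AML1-ETO (RUNX1-RUNX1T1, AML-ETO in the labels) fusion and, per the study's methods, was grown with GM-CSF. The 3 groups of 3 libraries were the control, EV in the labels and a control shRNA in the study's text, and SH2 and SH3, which carried either of a pair of shRNAs against ASXL2. In each group the libraries were numbered 1, 13 and 25, and the labels do not say what these numbers stand for. The study describes 3 biological replicates, but nothing in the labels states that the libraries came from separate cultures, so the p values measure the spread between these libraries, which may be technical in part. All 9 libraries were of a single cell line. The extraction text of these samples describes sorted bone marrow fractions, which is at odds with the cell line given as their source.

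With 1 row per gene the libraries held between 27714431 and 35406063 counts, so that 3 counts, the limit a count of 0 allows, equalled 0.0847 to 0.108 CPM, the count scaled to the effective library size. The limit of 3 counts covers counting error only. ASXL2 itself was at 67.9 to 74.7 CPM in EV, 30.4 to 36.2 CPM in SH2 and 26.9 to 41.1 CPM in SH3, with no overlap between the controls and either shRNA. The markers of this leukaemia were present, with MPO at 6368 CPM or more and RUNX1T1 at 111 CPM or more in every library, although CD34 was at 0.309 CPM or less. Summed markers of T cells, erythroid cells, stroma and epithelium reached at most 0.193 CPM in any library. The 3 monocyte markers summed to 52.2 to 80.9 CPM, nearly all from LYZ, and the 4 B cell markers to 50.3 to 67.5 CPM, mostly from CD79B, with MS4A1 at 0 throughout. The library SH3 1 stood apart from the other 8 on the first principal component, at a score of -58.6, against -24.9 to 25.0 for the rest, and results that rest on it are given without it as well.

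The sequence before the transcription start is shown for a member of each pattern described further on, because these members differed between the numbers of the libraries: DUSP6, low in the libraries numbered 13, SPRY1, highest within each group in the library numbered 1, and SPRY2, high in those numbered 25. Each is the 250 bases upstream of a RefSeq start on GRCh38.p14, read 5′ to 3′ on the gene's strand, from chr12:89352502-89352751 (minus strand) for DUSP6, chr4:123396545-123396794 (plus strand, the first of 2 starts) for SPRY1 and chr13:80341127-80341376 (minus strand, the outermost of 3 starts) for SPRY2. Capitals mark CCGGAA, the core letters bound by many ETS factors, on either strand.
DUSP6: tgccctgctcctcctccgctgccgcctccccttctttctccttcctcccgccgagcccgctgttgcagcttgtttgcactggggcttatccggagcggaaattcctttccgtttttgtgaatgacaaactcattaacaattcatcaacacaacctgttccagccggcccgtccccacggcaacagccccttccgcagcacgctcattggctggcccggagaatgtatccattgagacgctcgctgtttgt
SPRY1: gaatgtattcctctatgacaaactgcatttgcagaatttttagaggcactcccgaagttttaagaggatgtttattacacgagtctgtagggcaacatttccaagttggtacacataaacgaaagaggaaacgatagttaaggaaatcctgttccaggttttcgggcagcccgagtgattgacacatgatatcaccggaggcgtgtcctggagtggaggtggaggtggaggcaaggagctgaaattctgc
SPRY2: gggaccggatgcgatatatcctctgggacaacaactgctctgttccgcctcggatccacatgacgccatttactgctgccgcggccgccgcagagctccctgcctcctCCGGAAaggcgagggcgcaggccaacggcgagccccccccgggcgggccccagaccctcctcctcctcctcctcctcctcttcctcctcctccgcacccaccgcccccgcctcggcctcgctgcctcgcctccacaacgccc

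Upstream sequence was searched for 6 of the 10 members, with 10 starts in all. DUSP5, ETV4 and ETV5 had no entry. Sequences on chromosome 8, where DUSP4 lies, were left out of the search. CCGGAA occurred in 2 of these 10 starts, the SPRY2 start printed above and the second start of SPRY1. It occurred in 14.5% of the 35116 upstream sequences of the same length that were searched. Other motifs were searched on both strands of the same sequences. TGAATGAA, the octamer bound by the repressor CIC (capicua), was in 1.4% of them. TGANTCA, the AP-1 site, was in 6.57%, and TGACGTCA, the cAMP response element, in 1.65%. None of these 3 occurred in the 10 member starts. A match of letters is a description of the window and not a bound site, and no match says only that these letters were absent from it.

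The members differed widely in level. In EV, and per kilobase of the gene's GENCODE transcript, DUSP6 was the highest at 22.9 ± 5.58 CPM per kb (SD, n = 3), followed by SPRY2 at 13.4 ± 2.60 CPM per kb. Their EV libraries did not overlap. ETV5 came next at 5.85 ± 0.0889 CPM per kb and then SPRED2 at 4.601 ± 0.0643 CPM per kb, again without overlap. DUSP5 followed at 4.26 ± 0.599 CPM per kb, a range that contained that of SPRED2, so the order of these neighbours was not resolved. SPRY1 stood at 2.86 ± 0.309 CPM per kb and ETV4 at 2.76 ± 0.592 CPM per kb, and these also overlapped. DUSP4 was the lowest of the 8 at 0.575 ± 0.0828 CPM per kb, below every other tested member in every library.

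**Figure D1:**
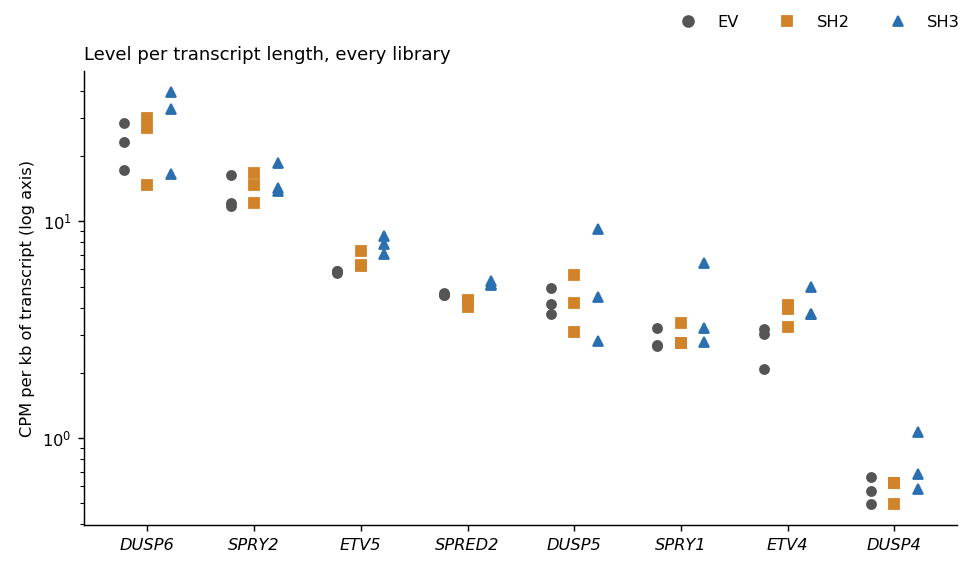
Level of the 8 tested feedback genes in each of the 9 libraries, in CPM per kb of transcript on a log axis, with the genes in order of their EV mean and 1 point per library (circles EV, squares SH2, triangles SH3). DUSP6 reached from 14.7 to 39.5 CPM per kb and DUSP4 from 0.495 to 1.07 CPM per kb over the libraries.

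The remaining Sprouty and SPRED genes were at the limit of detection. SPRY4 had between 0 and 4 counts in a library and SPRED1 between 0 and 7. Their highest values, 0.139 CPM for SPRY4 and 0.243 CPM for SPRED1, were both in SH2 25. No fold change is given for either. Among the Sprouty and SPRED members, the transcripts at a measurable level in these SKNO-1 libraries were thus SPRY1, SPRY2 and SPRED2.

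The phosphatase DUSP6 (NM_001946, chromosome 12, 89741012 to 89746278, minus strand, GRCh37) was the member with the smallest adjusted p values between numbers. Its level was 84.0, 62.3 and 103 CPM in the EV libraries numbered 1, 13 and 25, in that order. It was 98.0, 53.4 and 109 CPM in SH2 and 143, 59.8 and 120 CPM in SH3. All 3 libraries numbered 13 lay below all other 6, a pattern that 3.79% of tested genes showed and that no other member had. DUSP6 fell in number 13 against number 1 by 0.86 on the log2 scale (SE 0.13, edgeR quasi-likelihood test with Benjamini-Hochberg adjusted p = 0.00175). It was higher in number 25 than in number 13 by 0.91 (SE 0.13, edgeR adjusted p = 0.00441), and this call was lost without EV 25 or without SH2 13, at edgeR adjusted p values of 0.0524 and 0.0534. Between numbers 25 and 1 the log2 difference was 0.05 (SE 0.12, edgeR adjusted p = 0.760), and its sign turned to -0.11 without EV 1, while without SH3 1 it was 0.24 with an edgeR adjusted p of 0.0405.

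The nuclear phosphatase DUSP5 (NM_004419, chromosome 10, 112257665 to 112271291, plus strand, GRCh37) was highest in the libraries numbered 1. Its values in the order 1, 13 and 25 were 12.2, 10.2 and 9.27 CPM in EV, 14.1, 7.65 and 10.4 CPM in SH2 and 22.8, 6.92 and 11.0 CPM in SH3. The 3 libraries numbered 1 lay above all other 6, as they did for 14.4% of tested genes. DUSP5 fell in number 13 against number 1 by 0.95 on the log2 scale (SE 0.21, edgeR adjusted p = 0.00920), and this call held without any single library. It fell by 0.65 in number 25 against number 1 (SE 0.21, edgeR adjusted p = 0.0284), a call that was lost without any of EV 25, SH2 1, SH2 13, SH2 25, SH3 1 or SH3 25, with log2 differences of -0.87 to -0.32 and edgeR adjusted p values up to 0.140 over all 9 omissions. Without SH3 1 the difference was -0.32, with an edgeR adjusted p of 0.117.

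SPRY1 (NM_001258038, chromosome 4, 124317950 to 124324915, plus strand, GRCh37), a Sprouty protein that dampens receptor signalling, had values of 8.36, 6.94 and 7.002 CPM in EV, 8.84, 7.15 and 7.14 CPM in SH2 and 16.7, 7.19 and 8.41 CPM in SH3. The library SH3 1 was nearly double the next highest. Within each group, the library numbered 1 was still the highest. SPRY1 fell by 0.62 in number 13 against number 1 (SE 0.17, edgeR adjusted p = 0.0220) and by 0.54 in number 25 against number 1 (SE 0.17, edgeR adjusted p = 0.0281). Both calls depended on SH3 1, without which the log2 differences were -0.32 and -0.24, with edgeR adjusted p values of 0.0585 and 0.126. The first was also lost without SH3 13 (edgeR adjusted p = 0.138), the second without EV 25, SH2 25 or SH3 25 (edgeR adjusted p of 0.0685 to 0.174), and both in a fit with no group term, at edgeR adjusted p values of 0.0569 and 0.0679.

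SPRY2 (NM_005842, chromosome 13, 80910111 to 80915261, minus strand, GRCh37), the more abundant Sprouty gene in these cells, followed another order. It measured 27.8, 26.8 and 37.5 CPM in EV, 33.6, 27.8 and 38.4 CPM in SH2 and 31.6, 32.6 and 42.5 CPM in SH3. The 3 libraries numbered 25 were above the other 6, a pattern found in 9.54% of tested genes. SPRY2 rose in number 25 against number 1 by 0.35 (SE 0.08, edgeR adjusted p = 0.00591), and this call held without any single library. Its rise in number 25 against number 13 was 0.44 (SE 0.08, edgeR adjusted p = 0.0126), which was lost without any of EV 13, EV 25, SH2 13, SH2 25 or SH3 25, with edgeR adjusted p values of 0.0610 to 0.0963, and was 0.44 with an edgeR adjusted p of 0.0565 in a fit with no group term.

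**Figure D2:**
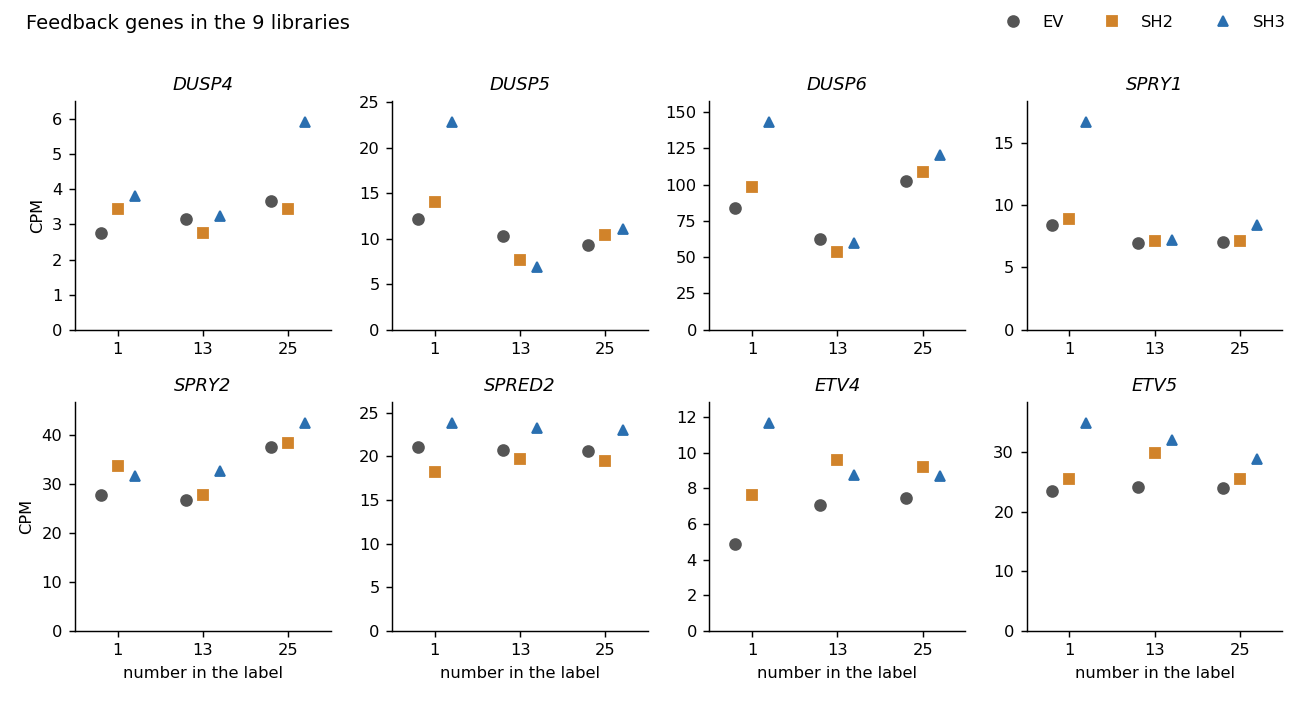
CPM of each tested feedback gene in the 9 libraries, by the number in the label, with 1 point per library (circles EV, squares SH2, triangles SH3) and axes that start at 0. DUSP6 at number 13 (53.4 to 62.3 CPM) lay below its other 6 libraries (84.0 to 143 CPM), and ETV4 and ETV5 were lowest in EV at each number.

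The other members did not pass the test between numbers. DUSP4 (NM_001394, chromosome 8, 29190581 to 29208201, minus strand, GRCh37), the other nuclear phosphatase, had a log2 difference of 0.48 in number 25 against number 13 (SE 0.18, edgeR adjusted p = 0.137), which was 0.49 with an edgeR adjusted p of 0.0499 without SH3 1. Its libraries ranged from 2.75 to 5.93 CPM, with the highest value in SH3 25. For ETV4, ETV5 and SPRED2 the log2 differences between any 2 numbers were between -0.13 and 0.12, with edgeR adjusted p values of 0.409 or more.

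Counted together, 3 of the 8 tested members fell and none rose in number 13 against number 1, where 34.3% of all genes tested passed the test. In number 25 against number 1, DUSP5 and SPRY1 fell and SPRY2 rose, 3 of 8 members against 44.3% of all genes. For number 25 against number 13 it was 2 of 8, DUSP6 and SPRY2, both higher in number 25, against 5.87% of all genes. The share of members was thus close to or below that of all genes in the first and second of these comparisons, and with 8 members the third rests on 2 genes. DESeq2 called the same members, 3, 3 and 2 in that order, beside 30.2%, 38.4% and 6.91% of all genes. The median log2 difference of the members was -0.11, 0.03 and 0.19 in the order given, beside -0.0026, -0.013 and -0.00057 over all genes tested.

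**Figure D3:**
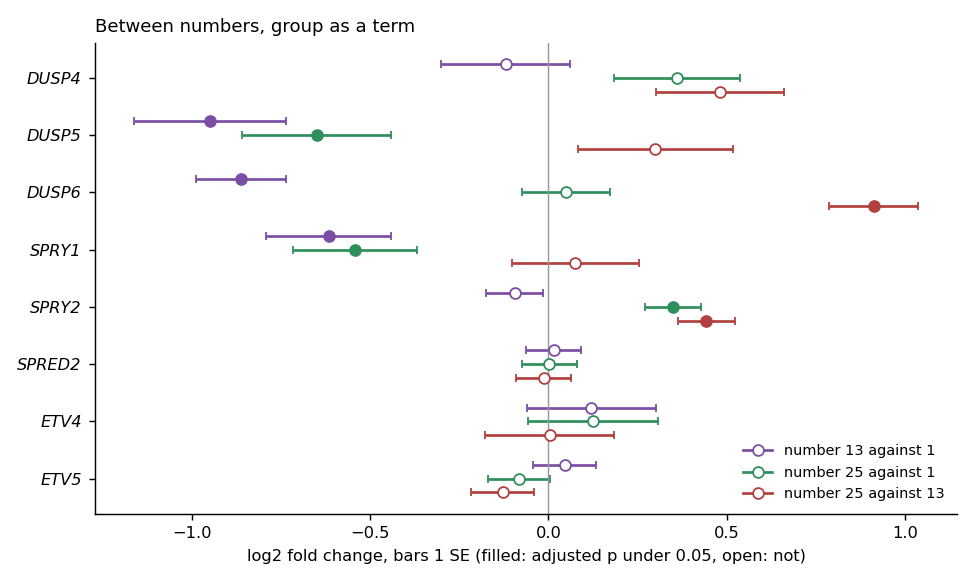
Log2 fold change between numbers for each tested feedback gene, from the edgeR fit with group and number as terms, with bars of 1 SE. Filled points passed an adjusted p of 0.05: DUSP5, DUSP6 and SPRY1 in number 13 against 1, DUSP5, SPRY1 and SPRY2 in number 25 against 1, and DUSP6 and SPRY2 in number 25 against 13.

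The study's own question was what loss of ASXL2 does to gene expression, and for this the shRNA groups were compared with EV. ETV4 (NM_001079675, chromosome 17, 41605212 to 41656988, minus strand, GRCh37) and ETV5 (NM_004454, chromosome 3, 185764103 to 185828107, minus strand, GRCh37), the PEA3-group factors, were the members whose 6 knockdown libraries all lay above all 3 controls, as did 2.16% of tested genes. ETV4 was at 4.87, 7.04 and 7.44 CPM in EV 1, 13 and 25, at 7.60, 9.59 and 9.18 CPM in SH2 and at 11.7, 8.77 and 8.70 CPM in SH3. The margin was narrow, with EV 25 and SH2 1 next to each other. ETV5 was at 23.5, 24.2 and 24.0 CPM in EV, at 25.5, 29.9 and 25.6 CPM in SH2 and at 35.0, 32.0 and 28.9 CPM in SH3. Here the controls were tightly grouped, and the SH3 libraries spread over a wider range than those of EV.

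These differences did not pass the edgeR test. In the fit without the number as a block, the log2 difference of ETV4 was 0.45 for SH2 (SE 0.20), at an edgeR adjusted p of 0.927, while for SH3 it was 0.59 (SE 0.20, edgeR adjusted p = 0.967). With the number as a block ETV4 differed by 0.46 in SH2 (SE 0.18, edgeR adjusted p = 0.222), and in SH3 by 0.61 (SE 0.18, edgeR adjusted p = 0.132). The SH3 value fell to 0.31 without SH3 1, and the SH2 value to 0.26 without EV 1. At the same number, ETV4 in SH3 was 2.40, 1.25 and 1.17 times its EV level for numbers 1, 13 and 25, so the difference was widest at number 1. ETV5 differed by 0.18 in SH2 (SE 0.11, edgeR adjusted p = 0.966), and by 0.42 in SH3 (SE 0.11, edgeR adjusted p = 0.930), when numbers were ignored. Once they entered the fit the SH2 value was 0.17 (SE 0.09) at an edgeR adjusted p of 0.313, whereas SH3 gave 0.42 (SE 0.09) at an edgeR adjusted p of 0.0683. DESeq2 with the same block called both genes in SH3, ETV4 at a DESeq2 adjusted p of 0.0492 and ETV5 at 0.0115. For both shRNAs averaged the blocked edgeR adjusted p was 0.112 for ETV4 and 0.0845 for ETV5, and DESeq2 with the block gave 0.0430 and 0.0484. Without the library SH3 1 the blocked edgeR fit called ETV4 in SH2 (0.46, adjusted p = 0.0177) and, for both shRNAs averaged, ETV4 (0.38, adjusted p = 0.0231) and ETV5 (0.24, adjusted p = 0.0270). Over all genes, that fit called 1604 for SH2 and 1755 for both shRNAs averaged, where the fit of all libraries called 40 and 156. The calls of ETV4 and ETV5 were thus not particular to them. Whether ETV4 and ETV5 differ with the knockdown therefore depended on the block, on the tool and on 1 library, and every call came from a fit with the block.

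No member was called in any of the 4 comparisons of the groups, either without the block, where 0% of all genes tested were called in each, or with it. With the block, 0.282% of all genes were called for SH2 against EV, 0.416% for SH3 against EV, 1.1% for both shRNAs averaged and 0.106% for SH3 against SH2. At an unadjusted edgeR p under 0.05 without the block there were 0, 2, 2 and 2 members in that order, beside 5.37%, 5.09%, 6.63% and 2.06% of all genes. With the block it was 1, 7, 3 and 5 members, beside 18.7%, 18.7%, 20.4% and 11.9% of all genes. The 7 members for SH3 against EV were all but DUSP5. DESeq2 called no member without the block, where it called 0.176%, 0.183%, 0.394% and 0.0775% of all genes in the same order. With the block it called 0, 2, 2 and 0 members, beside 2.63%, 3.34%, 4.38% and 1.07% of all genes. ASXL2 itself did not pass without the block, at edgeR adjusted p values of 0.808 for SH2 and 0.612 for SH3, so a miss in that fit says little about a member. In the blocked fit ASXL2 did pass, at edgeR adjusted p values of 0.00469 for SH2, 0.00407 for SH3 and 0.00098 for both averaged.

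All 8 tested members were above EV in the fitted log2 difference for SH3, with a median of 0.37 with the block against 0.01 over all genes tested. The median for SH2 was 0.04, with 6 of 8 above 0, against 0.01 over all genes. That count for SH2 ranged from 3 to 7 when each library was left out in turn with the block kept. For SH3 with the block the values ran from 0.17 for SPRED2 (SE 0.08) to 0.61 for ETV4. In between were SPRY2 at 0.22 (SE 0.08), DUSP5 at 0.24 (SE 0.21), DUSP6 at 0.32 (SE 0.12), DUSP4 at 0.41 (SE 0.18) and SPRY1 at 0.47 (SE 0.17), with edgeR adjusted p values of 0.189 or more. The library SH3 1 held the highest value of 6 of the 8 members, and SH3 25 that of DUSP4 and SPRY2. Without SH3 1, 7 of 8 members stayed above 0 and DUSP5 turned to -0.10 with the block and -0.24 without it. SPRY1 then dropped to 0.16, DUSP6 to 0.13 and ETV4 to 0.31 with the block. The DUSP4 value was lowest without SH3 25, at 0.23.

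**Figure D4:**
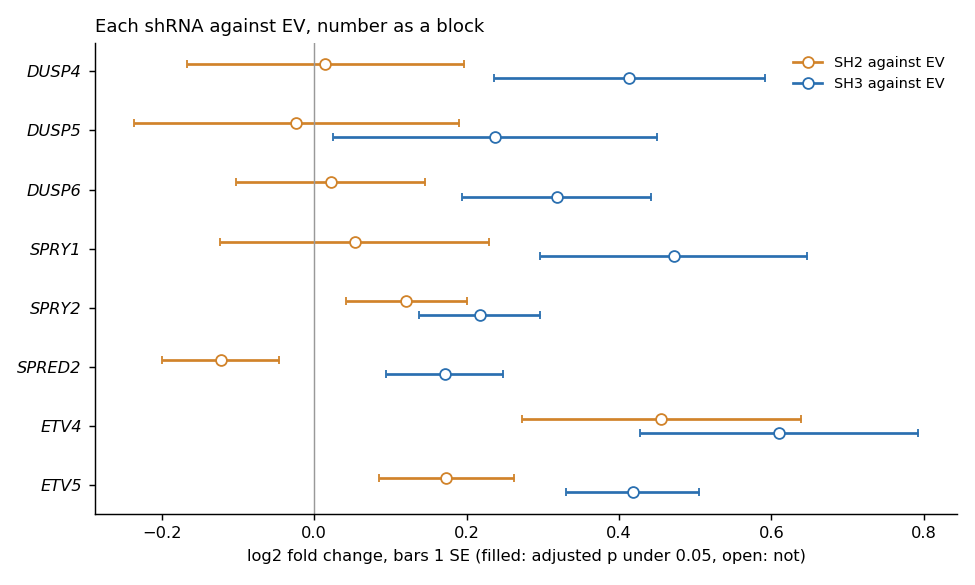
Log2 fold change of each tested feedback gene in SH2 and in SH3 against EV, from the edgeR fit with the number as a block, with bars of 1 SE and open points because no member passed an adjusted p of 0.05. SH3 values were above 0 for all 8 members, from 0.17 to 0.61, and SH2 values ran from -0.12 for SPRED2 to 0.46 for ETV4.

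SPRED2 (NM_181784, chromosome 2, 65537985 to 65659771, minus strand, GRCh37) restrains the RAS to RAF step. It was the member whose SH2 and SH3 libraries lay on opposite sides of all controls. It was at 21.1, 20.7 and 20.6 CPM in EV, at 18.2, 19.7 and 19.4 CPM in SH2 and at 23.9, 23.3 and 23.1 CPM in SH3. Every SH2 library was below every control, a pattern of 7.8% of tested genes that no other member had. Every SH3 library was above every control, as for 4.81% of tested genes and, among the members, for ETV4 and ETV5 as well. The log2 difference between SH3 and SH2 was 0.29 (SE 0.09, edgeR adjusted p = 0.998) when numbers were ignored. The blocked fit gave the same size (SE 0.08) at an edgeR adjusted p of 0.185, so the difference passed in neither fit. All 8 tested members were higher in SH3 than in SH2 in the blocked fit. DUSP4 (0.40, SE 0.18) and SPRY1 (0.42, SE 0.17) differed by more than SPRED2 did.

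The libraries were also read for how the members vary with each other, as a description over 9 libraries that share their depth, number and group. DUSP5 and SPRY1 had the highest Pearson correlation of log2 CPM, at 0.892, which was 0.737 without SH3 1 and 0.814 after removing the mean of each number. ETV4 and ETV5 followed at 0.804, which was 0.700 without SH3 1. For DUSP4 and SPRY2 it was 0.801, and DUSP6 and SPRY2 rose from 0.639 to 0.813 without SH3 1. SPRY1 and ETV5 fell from 0.588 to -0.0955 without that library, so this pair rested on it.

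Among all tested genes, the one most like DUSP6 over the 9 libraries was IER2, an immediate early transcript, with a Pearson correlation of 0.989, followed by PIM1, which encodes a serine/threonine kinase, at 0.984 and CENPBD1P1 at 0.975. PIM1 was at 320 to 354 CPM in the libraries numbered 13 and at 460 to 685 CPM in the others. The nearest genes were ZFP36 and ADRB3 for DUSP5, at 0.987 each, PPARD for SPRY1 at 0.993 and LOC102723885 for SPRY2 at 0.973. For DUSP4 it was CDK16 at 0.885, for SPRED2 the row MIR590 at 0.922, for ETV4 ALOX5AP at 0.956 and for ETV5 NT5C3A at 0.947.

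Other transcripts tied to ERK signalling were examined as a list of 20, of which 16 were tested. Most of them are known to be raised by it, but CIC and ERF, also on the list, are not. In number 13 against number 1, EGR1, FOS, IER2, MYC, LIF and HMGA2 fell and ERF rose, 7 of 16 against 34.3% of all genes. EGR1, the zinc finger factor of the immediate early response, was at 10.2 to 11.7 CPM in the libraries numbered 13, at 51.8 to 68.5 CPM in those numbered 1 and at 140 to 209 CPM in those numbered 25. FOS was at 1.77 to 2.01 CPM, 4.62 to 6.54 CPM and 24.5 to 55.2 CPM in the same order. Neither gene overlapped between any of the numbers. Among all genes tested, 3.79% had number 13 below the other 6 libraries and 9.54% had number 25 above the other 6. The share with both was not counted. In number 25 against number 13, EGR1 (3.96), FOS (4.21), IER2 (0.62) and MYC (0.53, all on the log2 scale) rose and none of the list fell, 4 of 16 against 5.87% of all genes. DUSP6 moved in the same direction as these 4 genes in both comparisons. In number 25 against number 1, EGR1, FOS, FOSL1 and TNFRSF12A rose, while LIF, FOSL2, PHLDA1, CCND1 and EPHA2 fell, so the list held no single direction there.

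**Figure D5:**
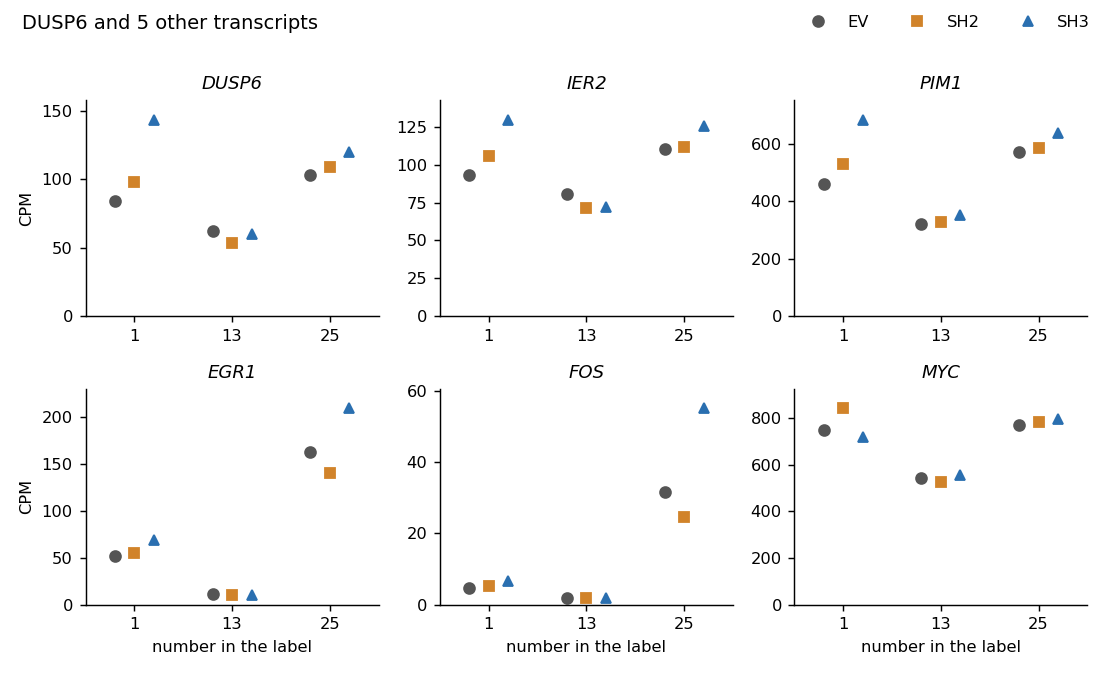
CPM of DUSP6 and of 5 other transcripts in the 9 libraries, by the number in the label, with 1 point per library (circles EV, squares SH2, triangles SH3) and axes that start at 0. All 6 transcripts were lowest in the libraries numbered 13, while EGR1 and FOS were far higher in those numbered 25 than in those numbered 1 and MYC and DUSP6 were not. IER2 and PIM1 were the genes most correlated with DUSP6 over these same libraries, so their shared low at number 13 is not a separate result.

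The paralogues of the members did not share a direction. Of 12 paralogues 8 were tested, and in number 13 against number 1 none rose and 2 fell, in number 25 against number 1 it was 2 and 3, and in number 25 against number 13 it was 2 and 1. Calls over all genes, in both directions together, were 34.3%, 44.3% and 5.87% in that order, and these shares also stand beside the counts of the lists that follow. DUSP1 and DUSP2, phosphatases of the nuclear, inducible kind, rose in number 25 against both other numbers, DUSP1 by 1.75 and 2.09 and DUSP2 by 0.73 and 0.63 on the log2 scale. DUSP10, which acts on p38 and JNK rather than ERK, fell by 0.93 in number 25 against number 1 and by 0.91 against number 13. DUSP7, the nearest relative of DUSP6, was at 60.7 to 67.7 CPM in all 9 libraries.

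Upstream of the feedback genes, 9 of 13 receptors were tested. CSF2RB, the signalling chain of the GM-CSF receptor, rose by 0.36 in number 25 against number 1, while KIT (-0.52), FLT3 (-0.71), CSF3R (-0.70) and CSF1R (-0.88) fell. In number 13 against number 1, CSF1R, CSF3R, FLT3 and INSR fell and none rose, and in number 25 against number 13 edgeR called no receptor, with 5 at an unadjusted p under 0.05 and 2 (CSF2RB and KIT) called by DESeq2. CSF2RA and IL3RA had almost no counts, and since these genes lie in a region that the X and Y chromosomes share, where reads match more than 1 place, their counts are uncertain. Among 12 tested adaptors and RAS genes, 2 rose and 2 fell in number 13 against number 1, and 5 rose and 4 fell in number 25 against number 1. SOS1, the exchange factor that loads RAS, rose in both, by 0.59 and 0.68. Between numbers 25 and 13 edgeR called 0 of these 12, with 4 at an unadjusted p under 0.05, and DESeq2 called 0. Of the 13 tested kinases and scaffolds, MAP2K1, which encodes the ERK kinase MEK1, and PEA15, which binds ERK in the cytoplasm, rose in number 25 against number 13, by 0.27 and 0.28, and none fell. MAPK3, which encodes ERK1, fell by 0.41 in number 13 against number 1. In that comparison 3 genes of this list rose and 2 fell, and in number 25 against number 1 it was 4 and 2.

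All 9 genes of a list of further brakes on RAS were tested. Of these, 1 rose and 1 fell in number 13 against number 1, 2 rose and 2 fell in number 25 against number 1, and 1 rose in number 25 against number 13. LZTR1, which targets RAS proteins for degradation, rose by 0.37 in number 25 against number 13, and NF1 did not pass in any comparison of numbers. Over the 9 tested downstream kinases and ETS factors, 1 rose and 2 fell in number 13 against number 1, 0 rose and 4 fell in number 25 against number 1, and edgeR called 0 in number 25 against number 13, with 2 at an unadjusted p under 0.05 and 0 called by DESeq2. Taking all 76 tested genes of these lists together, edgeR called 27 in number 13 against number 1, 42 in number 25 against number 1 and 10 in number 25 against number 13, and DESeq2 called 24, 36 and 12. The share of all genes called was 34.3%, 44.3% and 5.87% by edgeR and 30.2%, 38.4% and 6.91% by DESeq2.

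With the knockdown, edgeR without the block called 0 of the 76 in each of the 4 group comparisons, with 3 at an unadjusted p under 0.05 in each, where 2.06% to 6.63% of all genes were, and DESeq2 also called 0. With the block, CSF3R, the receptor for G-CSF, fell for both shRNAs averaged (edgeR adjusted p = 0.0385), and no other gene of the lists passed. At an unadjusted edgeR p under 0.05 there were 13 for SH2, 14 for SH3, 11 for both averaged and 17 for SH3 against SH2. The shares of all genes were 18.7%, 18.7%, 20.4% and 11.9% in that order. DESeq2 with the block called 2, 3, 1 and 3 of the 76 in the same order, against 2.63%, 3.34%, 4.38% and 1.07% of all genes. EGR1 was at 51.8, 11.7 and 163 CPM in EV 1, 13 and 25, at 55.1, 10.6 and 140 CPM in SH2 and at 68.5, 10.2 and 209 CPM in SH3, so the spread between numbers was far wider than that between groups. In bulk libraries a lower level per cell and fewer cells that carry a transcript cannot be told apart, and what the numbers stand for was not tested here.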

How the data were processed

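The authors deposited whole-number counts per RefSeq row on hg19, not normalized. The submitters' processing notes name STAR, featureCounts and DESeq2 without versions. Isoform rows shared reads, so each symbol was represented by its row with the highest total. The paper's methods give poly(A) libraries without strand, so reads of ETV5, SPRY4, DUSP6 and ETV4 cannot be told apart from those of genes annotated across them on the opposite strand. Members and lists were chosen with earlier results of these data known. Genes named were the members, list genes that passed a test or bear on the described pattern, and up to 3 genes most correlated with each member.

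Tests used edgeR 4.0.16 in R 4.3.3: TMM scaling, filterByExpr at its defaults (10 counts at the least and 15 in total), the quasi-likelihood F test and Benjamini-Hochberg adjustment over all 14199 genes within each comparison, at a threshold of 0.05. Groups were compared in a fit of all 9 libraries with group alone (6 residual degrees of freedom), and numbers in a fit with group and number (4 residual degrees of freedom). The SE was the log2 fold change divided by the square root of F. Same-numbered libraries of different groups deviated together (9 pairs, correlations of 0.398 or more), so the numbers were treated as pairing the libraries. No libraries of a group agreed within sampling noise (chi-square per degree of freedom of 17.7 or more). DESeq2 1.42.0 was an alternative. The steps were tested on simulated counts.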

Additional observations from a re-analysis of the deposited data

Results flagged for a closer look

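SPRED2 stood out because the shRNAs went opposite ways: relative to the EV library of the same number, all 3 SH2 libraries were lower, at ratios of 0.861 to 0.952, and all 3 SH3 libraries were higher, at ratios of 1.12 to 1.13. The log2 difference between SH3 and SH2 was 0.29, and its edgeR adjusted p was 0.998 when numbers were ignored and 0.185 when they were a block. It ranged from 0.26 to 0.32 when each library was left out in turn without the block.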

How the results depend on the processing

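Of the values given for the feedback genes, the number-based calls of DUSP6, DUSP5, SPRY1 and SPRY2 kept their direction and their side of the threshold with DESeq2, with RLE size factors, without the filter on low counts, with all rows of a symbol summed and with a correction for transcript length and GC content. With no group term, SPRY1 lost its calls in 13 against 1 and in 25 against 1 (edgeR adjusted p of 0.0569 and 0.0679). SPRY2 lost its call between numbers 25 and 13, where 1 member in place of 2 was called. All genes called fell to 3178 for 13 against 1 and 304 for 25 against 13.

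The counts over all genes moved with the block, with the tool and with single libraries. For SH2, SH3, both shRNAs averaged and SH3 against SH2, in that order, edgeR called 40, 59, 156 and 15 genes with the replicate block, 6, 53, 18 and 13 with the block and a length and GC correction, and 37, 96, 155 and 13 with the block on genes that have a length, an alternative chosen after seeing the data. DESeq2 called 25, 26, 56 and 11, and with the block, also added afterwards, 374, 474, 622 and 152 genes and 2 members each for SH3 and for both shRNAs averaged. Without the 3 libraries numbered 1, another later choice, the blocked fit called 267, 341, 370 and 129 genes and no member, and DUSP5 in SH3 was -0.15.

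Leaving out 1 library without the block gave 0 to 1 genes for SH3 and 0 to 2 for both shRNAs averaged, and DUSP5 in SH3 ranged from -0.24 to 0.68. With the block kept, the ranges were 0 to 1604 genes and 0 to 1 member for SH2, 1 to 368 genes for SH3, 2 to 1755 genes and 0 to 2 members for both shRNAs averaged and 0 to 257 genes for SH3 against SH2, and DUSP5 in SH3 ranged from -0.10 to 0.52. SH3 1 gave the highest counts for SH2, SH3 and both shRNAs averaged, and SH3 13 that for SH3 against SH2. Between numbers the ranges were 1969 to 4674 genes for 13 against 1, 3884 to 6654 genes and 1 to 3 members for 25 against 1, and 50 to 2750 genes and 0 to 3 members for 25 against 13, where the fits without EV 25 and without SH2 13 called no member. DUSP6 in 25 against 1 ranged from -0.11 to 0.24, and SPRY1 in 25 against 13 from -0.12 to 0.19. The cause of these changes was not tested. The replicate block changed no call of a member in edgeR with all 9 libraries. Depth limits SPRY4 and SPRED1, which had too few counts for a test.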
